A study of Auricularia auricula-judae with 2 samples.

Results

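Genes described as protein kinases or protein phosphatases were examined in the wood-ear mushroom, Auricularia auricula-judae, in RNA of its fruit bodies. These grew either from mycelium given 200 Gy of gamma radiation or from mycelium left unexposed. Members were transcripts whose closest Swiss-Prot description names a protein kinase, MAP kinase, casein kinase, tyrosine kinase or protein phosphatase. Descriptions that name cell division, cyclins, checkpoints, spindles, calcium or calmodulin were left out. Isoforms that matched were summed for each assembled gene, and genes were kept from 20 scaled reads, the sum of the authors' 2 scaled values, 1 for each library. The members were thus selected on descriptions and on these totals. A gene can pass on the reads of 1 library, so the choice was not independent of the difference between the libraries. Of 43428 assembled genes, 435 had a matching transcript and 196 passed the minimum, which leaves 239 with too few reads to describe.

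The control group is labelled as not treated and the other as treated with 200 Gray of gamma radiation, and no strain is named in the labels. Mycelium of both groups was grown for 14 days at 25 °C on agar, moved to sawdust with rice bran, grown for 30 days at 25 °C and fruited at 18 °C and 90% humidity. RNA was taken from the fruit bodies and not from the irradiated mycelium, and each group had 1 library. Differences are therefore those of a pair of libraries, without a replicate check or a test. Whether a library pooled several fruit bodies is not stated in the labels, and the tissue label was not checked against marker genes. In whole fruit bodies, fewer cells of a type and less RNA per cell cannot be told apart.

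Protein kinases pass a phosphate from ATP to serine, threonine or tyrosine in other proteins, and protein phosphatases remove it. In fungi such relays carry signals on mating partners, cell wall damage, osmotic stress, sugar and nitrogen supply, and kinases of the ATM and ATR type respond to damaged DNA. Mushroom-forming fungi are also known for many kinase-like genes without close relatives in yeasts. A symbol here names the closest Swiss-Prot match, often from an animal, a plant or a slime mould, and not a curated gene of this mushroom.

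Levels are FPKM, fragments per kilobase of transcript scaled to library size, as deposited by the authors. Ratios of irradiated over control were taken as log2 of FPKM + 1, which understates the difference of genes with low values, and counts of higher or lower genes take a ratio of 2-fold or more. For single genes, higher and lower give the side of the ratio. Where a pair of levels is given, the control library comes first. Intervals are exact Clopper-Pearson 95% intervals of the log2 ratio of the scaled values in the authors' deposited table. They cover counting error only and belong to those scaled values, and 27 of the 196 FPKM ratios lie outside their interval. The scaled values sum to 8872430 in the control and 8404060 in the irradiated library, and the members held 1.65% and 1.50% of the summed FPKM. Of the members, 152 had 100 or more scaled reads, where the median half-width of the interval was 0.20 on the log2 scale. For the 44 members with fewer reads it was 1.04.

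As a whole the 196 genes were spread about as widely as the other genes of the table. In the irradiated library 19 of them were at least 2-fold higher, against 11.3% of all 12552 genes past the same minimum, and 25 were at least 2-fold lower, against 11.7% of all genes. These counts are 9.69% and 12.8% of the members, near the shares over all genes in both directions. The median log2 ratio of the members was 0.04, beside a median of 0.07 over all genes. Among the 152 members with 100 or more scaled reads, 11 were higher and 16 lower, which is 7.24% and 10.5%, against 9.32% and 8.68% of all genes with as many reads. The median size of their log2 ratio, sign ignored, was 0.42, and that of all genes was 0.48. Counting intervals lay wholly beyond 2-fold for 10 of the 196 genes in the higher direction, against 4.33% of all genes, and for 13 in the lower direction, against 6.44%. With 100 or more scaled reads the same was true of 4 members higher, against 4.24%, and 12 lower, against 6.45%.

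**Figure D1:**
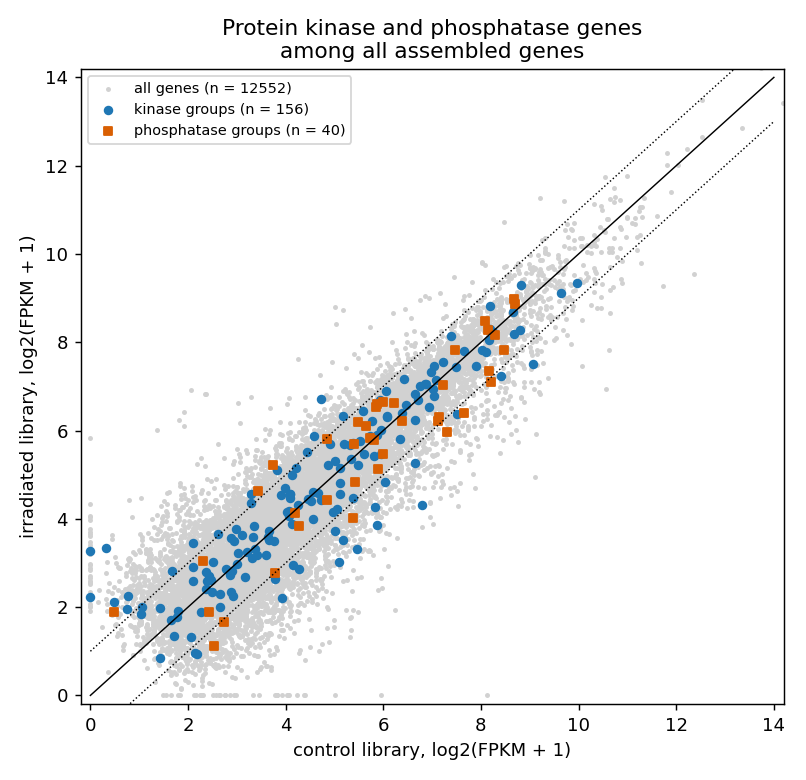
Level of each gene in the control library (x axis) and the irradiated library (y axis), both as log2(FPKM + 1), 1 library per group. Grey points are all 12552 genes, blue circles the 156 kinase-group genes and orange squares the 40 phosphatase-group genes, and dotted lines mark 2-fold. Most members lie between the dotted lines, with 19 on or above the upper and 25 on or below the lower.

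The members were sorted into 18 role groups by their descriptions, 156 genes in kinase groups and 40 in phosphatase groups. Phosphatase genes had the higher levels, where the control median was 57.2 FPKM against 22.6 FPKM for the kinase groups. The 5 genes with the highest mean level were the kinases srk1 and HOG1, a regulatory subunit of the AMP-activated kinase, and a pair of type 1 phosphatase genes, all between 411 and 998 FPKM in the control library. None of these 5 was 2-fold apart. Genes in kinase groups had a median log2 ratio of 0.05 and those in phosphatase groups -0.09, or 0.05 for both among genes with 100 or more scaled reads, so no direction is given for either kind.

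**Figure D2:**
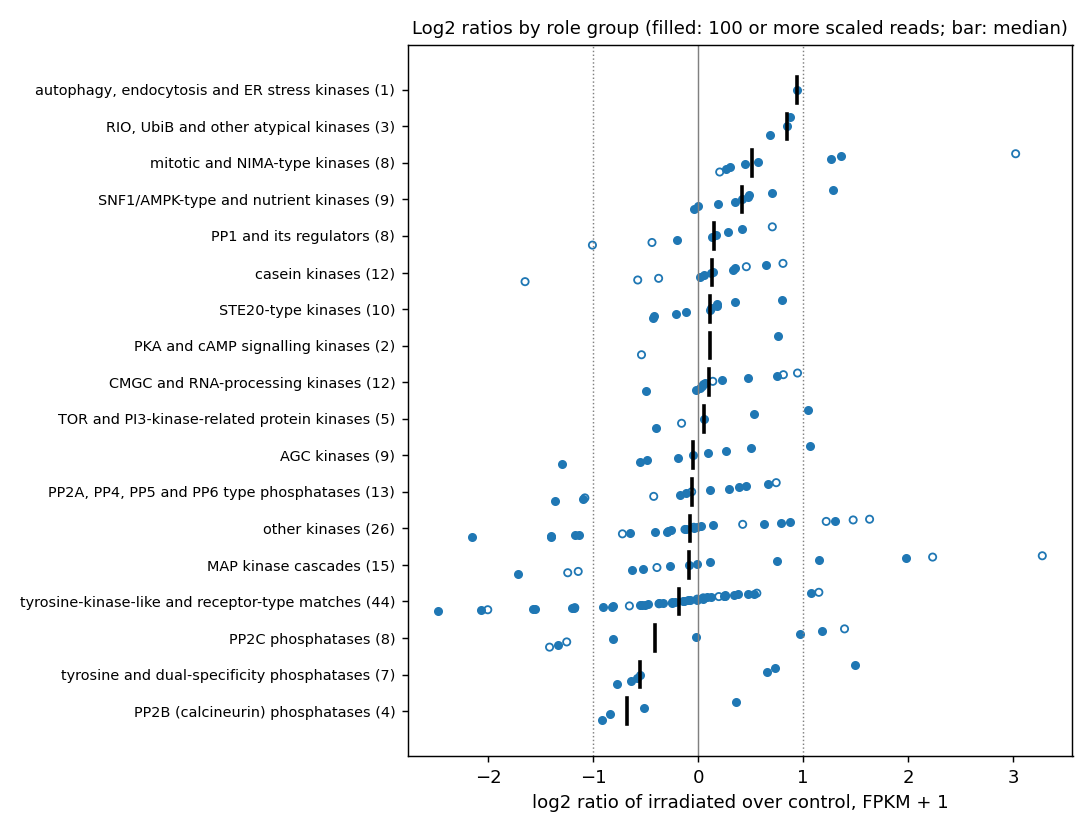
Log2 ratio of irradiated over control on FPKM + 1 (x axis) for each of the 196 genes by role group (y axis, with the number of genes). Filled points have 100 or more scaled reads, open points 20 to 99, bars are group medians and dotted lines mark 2-fold. The 8 mitotic and NIMA-type genes all lie above 0, while 28 of the 44 tyrosine-kinase-like and receptor-type genes lie below 0.

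Within the MAP kinase cascades, both spm1 matches of the cell wall MAP kinase were at least 2-fold higher, and the abundant match of the osmotic stress MAP kinase was lower by less than 2-fold. MAP kinases are the last step of a chain in which a MAP kinase kinase kinase activates a MAP kinase kinase, which activates the MAP kinase. A gene matched to spm1 (TBIU042977), the cell integrity MAP kinase of fission yeast, had a control level of 25.5 FPKM and an irradiated level of 103 FPKM. The log2 ratio was 1.98, and its counting interval ran from 1.68 to 2.23. A second spm1 match (TBIU001718) had 35.3 and 80.0 FPKM, or a log2 ratio of 1.16. Both were higher in the irradiated library, and the interval of the second, 0.78 to 1.44, reached below 2-fold.

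MKC1, the cell wall MAP kinase of Candida albicans, was matched by 3 genes. The most abundant (TBIU003294) had a control level of 84.8 FPKM and an irradiated level of 144 FPKM, or a log2 ratio of 0.76, and its 3 isoforms had log2 ratios from -0.93 to 1.60, the latter for the one with the most reads. A second (TBIU003295) of the same assembly cluster was listed at 0 for the control and at 8.69 FPKM for the irradiated library. The third (TBIU053817), with 27.6 scaled reads, had 3.56 and 0.93 FPKM. The second and the third each passed the read minimum through the library where they are high, so their direction adds nothing. The estimated effective lengths of the spm1 matches, 618 and 371 bases, were shorter than the 993 bases of the first MKC1 gene. Whether these are pieces of fewer genes was not tested.

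Kinases upstream of that branch lay within 2-fold. A match of mkh1 (TBIU018748), the MAP kinase kinase kinase of this pathway in fission yeast, had a control level of 131 FPKM and an irradiated level of 109 FPKM, or a log2 ratio of -0.26. A protein kinase C-like gene (pkcA, TBIU051861), whose yeast relatives act above this chain, had 35.9 and 51.1 FPKM, with an interval of -0.10 to 1.01 that spans 0.

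On the osmotic stress side the abundant HOG1 and srk1 genes were lower, while the wis1 match was level. HOG1 (TBIU009040), the MAP kinase that answers high osmolarity in yeasts, had a control level of 794 FPKM and an irradiated level of 554 FPKM, or a log2 ratio of -0.52 and a counting interval of -0.63 to -0.56. A second HOG1 match (TBIU050589), with 31.4 scaled reads, had 12.7 and 5.20 FPKM. The most abundant member of all, srk1 (TBIU025865), is a kinase that binds and is activated by the HOG1 relative Sty1 in fission yeast. It had 998 and 646 FPKM, or a log2 ratio of -0.63. A match of wis1 (TBIU010903), which activates Sty1 in fission yeast, had 303 and 301 FPKM, or a log2 ratio of -0.01. None of the abundant genes of this branch was 2-fold apart.

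Mating-type relays had a low-level gene on the lower side. Byr2 (TBIU015389), the MAP kinase kinase kinase of fission yeast mating, had a control level of 14.1 FPKM and an irradiated level of 3.61 FPKM. Its log2 ratio was -1.71, with an interval of -2.55 to -1.58 that lay wholly beyond 2-fold. FUZ7 (TBIU008044), a MAP kinase kinase of mating in Ustilago maydis, had 129 and 121 FPKM, or a log2 ratio of -0.08. A gene described only as mitogen-activated protein kinase (TBIU014682) had 87.5 and 94.9 FPKM. The remaining cascade matches were MKK10 (TBIU022802), with 27.1 scaled reads and 55.4 and 42.0 FPKM, and MAP3K8 (TBIU016328), which was listed at 0 for the control and at 3.70 FPKM for the irradiated library. With the isoforms that the selection did not take added, MAP3K8 had a log2 ratio of 0.50.

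**Figure D3:**
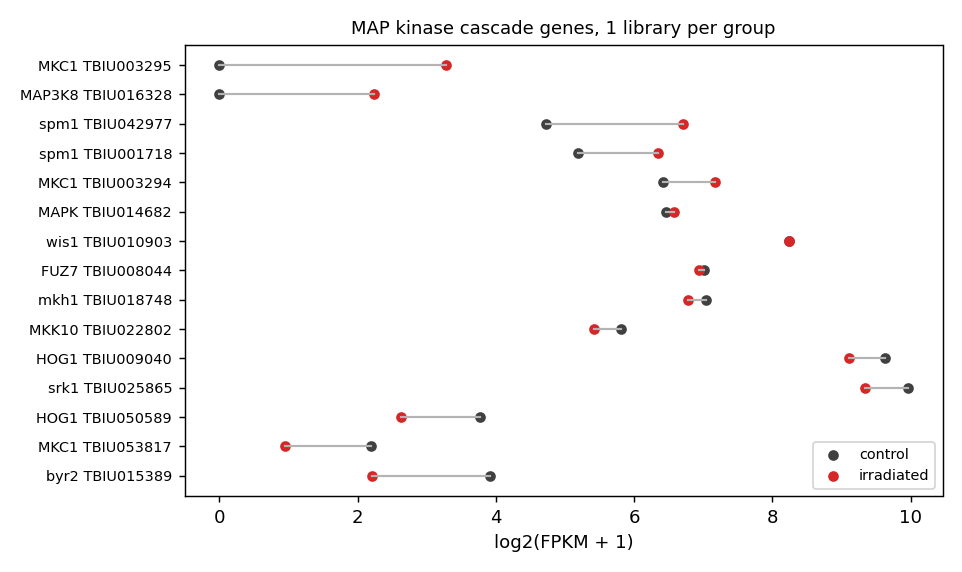
Level of the 15 MAP kinase cascade genes (y axis, symbol and gene number) as log2(FPKM + 1) (x axis) in the control library (grey) and the irradiated library (red), 1 library per group. The spm1 genes and 2 of the MKC1 genes lie to the right in red, while HOG1, srk1 and byr2 lie to the left.

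Over the whole cascade group, 4 of 15 genes passed 2-fold upward and 3 downward, with a median log2 ratio of -0.08. Over all genes past the read minimum 11.3% passed 2-fold upward and 11.7% downward. Of the 4 higher cascade genes, 2 were listed at 0 in the control library. The summed level of all 15 was 2673 FPKM for the control and 2217 FPKM for the irradiated library. Of the 7 genes 2-fold apart, 3 had 100 or more scaled reads, namely both spm1 matches and byr2. The other 4 passed the read minimum through 1 library, the one where they are high.

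STE20-type kinases, which sit above MAP kinase chains or shape the cell's growth axis, held 10 genes, all within 2-fold. CLA4 (TBIU019473), a kinase that binds the small GTPase Cdc42 in yeast, had a control level of 287 FPKM and an irradiated level of 265 FPKM. The other CLA4 matches (TBIU003930 and TBIU003929), of 1 assembly cluster, both had a log2 ratio of 0.18. Of the 3 SMU1 matches, relatives of Ste20 in Ustilago maydis, the abundant ones (TBIU019470 and TBIU014362) had -0.42 and -0.43. Stk39 (TBIU016426) was the highest of the group at 6.89 and 12.7 FPKM, but its log2 ratio of 0.80 was 2.25 for its most-read isoform alone and 0.43 with all isoforms added.

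Kinases of the cAMP and AGC type gave few large differences. TPK2 (TBIU014174), a catalytic subunit of the cAMP-dependent kinase that links sugar supply to growth in yeasts, had a control level of 166 FPKM and an irradiated level of 281 FPKM. Its log2 ratio was 0.76 with an interval of 0.61 to 0.76. A short second match (TBIU042961), with 55.4 scaled reads, had 80.6 and 55.2 FPKM.

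Of 9 AGC genes, 1 was at least 2-fold higher and 1 as far lower, against 11.3% and 11.7% of all genes. Gad8 (TBIU008370), which the TOR complex 2 activates in fission yeast, was the most abundant, with 407 and 289.9 FPKM and a log2 ratio of -0.49. PKH2 (TBIU058615), a yeast relative of the PDK1 kinase that switches on AGC kinases, had a control level of 31.3 FPKM and an irradiated level of 12.2 FPKM, or a log2 ratio of -1.29. Its interval of -1.98 to -0.89 reached within 2-fold. Stk32a (TBIU012848) had 20.7 and 44.4 FPKM, or a log2 ratio of 1.06, while its other matches (TBIU018720 and TBIU007501) had -0.05 and 0.09. The ratio of the first came just within 2-fold with the overall median removed, at 0.993, and was 0.94 with a pseudocount of 5. CBK1 (TBIU019426), which controls cell separation in budding yeast, had 106 and 128 FPKM.

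Genes of the SNF1 or AMP-activated kinase, which turns metabolism toward energy supply when sugar is scarce, lay within 2-fold. Of 9 genes in this group of SNF1-type and related kinases 8 had a log2 ratio above 0, against 53.3% of all genes past the minimum, and 7 did with the overall median of 0.07 removed. The median was 0.42, and 1 of the related kinases, CIPK6 (TBIU015655), was at least 2-fold higher. The catalytic SNF1 gene (TBIU015429) had a control level of 130.3 FPKM and an irradiated level of 175 FPKM, or a log2 ratio of 0.42. The beta subunit PRKAB1 (TBIU022599), which holds the complex together, had 449 and 625 FPKM, or a log2 ratio of 0.48. The gamma subunit Prkag2 (TBIU057330), which senses AMP, had 39.6 and 39.7 FPKM. A second beta subunit match (KINB1, TBIU035587), named for an Arabidopsis gene, had 14.9 and 24.9 FPKM. So the catalytic and beta subunits stood above 0 and the gamma subunit was level.

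The gene of this group that stood 2-fold apart was matched to a plant kinase. CIPK6 (TBIU015655), described as a CBL-interacting protein kinase, had a control level of 13.2 FPKM and an irradiated level of 33.4 FPKM, or a log2 ratio of 1.28 with an interval of 1.01 to 1.52. CIPK4 (TBIU024110) had 3.31 and 5.05 FPKM. A pair of kin1 matches (TBIU014496 and TBIU024837), kinases of cell polarity in fission yeast, had log2 ratios of 0.19 and 0.35. HSL1 (TBIU021499), a regulator of mitotic entry in budding yeast, was the lowest of the group at 11.4 and 11.1 FPKM.

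Casein kinases, which act constitutively on many proteins, mostly lay within 2-fold. Of 12 genes 11 were within 2-fold, with a median log2 ratio of 0.14. The abundant casein kinase I gene KC1_TOXGO (TBIU020409) had a control level of 288 FPKM and an irradiated level of 315 FPKM. Both cki2 genes (TBIU002639 and TBIU014770) had similar log2 ratios, 0.33 and 0.35. Ckb-2 (TBIU009870), a regulatory subunit of casein kinase II, was the highest among those with 100 or more scaled reads, at 289.6 and 454 FPKM and a log2 ratio of 0.65, with an estimated effective length of 129 bases. The 1 gene beyond 2-fold, an hhp1 match (TBIU068168) with 56.0 scaled reads, had 34.9 and 10.5 FPKM. Over all genes 11.7% were at least 2-fold lower. This match passed the read minimum through the control library, where it is high. The other hhp1 matches (TBIU047069, TBIU021192 and TBIU001579) had log2 ratios of 0.02, 0.06 and 0.46. Estimated effective lengths of these 4 genes, from 83 to 141 bases, are those of short pieces.

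Kinases of the CMGC class include those that act on splicing proteins and on RNA polymerase II. Of 12 genes 0 were beyond 2-fold, against 11.3% of all genes higher and 11.7% lower, and the median log2 ratio was 0.10. On the authors' scaled values 2 low-level genes were more than 2-fold higher, at log2 ratios of 1.30 and 1.13. These were Srpk2 (TBIU057490), with 1.07 and 2.99 FPKM on 26.5 scaled reads, and a PSRPK match (TBIU009865), with 1.05 and 2.60 FPKM on 37.5. Gsk3 (TBIU013601), glycogen synthase kinase 3, was the most abundant at 405 and 410.0 FPKM, with a log2 ratio of 0.02. It was the 1 member whose FPKM ratio and counting interval, -0.10 to -0.02, had opposite signs, and both values are close to 0. SKY1 (TBIU025054), a yeast kinase of SR splicing proteins, was the lowest at 61.1 and 43.2 FPKM. Crk1 (TBIU015892) was the highest with 100 or more scaled reads, at 60.0 and 102 FPKM, or a log2 ratio of 0.75. The Mediator kinase SSN3 had 2 matches under that spelling (TBIU017483 and TBIU010023), with log2 ratios of 0.23 and 0.14. PRPF4B (TBIU019682), a splicing-related kinase, had a log2 ratio of -0.02 summed and -0.69 for its most-read isoform alone.

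The 8 mitotic and NIMA-type kinase genes past the minimum had log2 ratios above 0, a side held by 53.3% of all genes past it. Of the 8, 3 were at least 2-fold higher, against 11.3% of all genes. One of these, CHK1, passed the minimum through the irradiated library, where it is high. The intervals of NEK2 (TBIU009534), plk4 and mph1 spanned 0, at -0.50 to 0.89, -0.35 to 0.74 and -0.04 to 0.33. The count of 8 also depends on the sorting into role groups. HSL1, a regulator of mitotic entry sorted with the SNF1-type kinases, had a log2 ratio of -0.03. The 3 matches of CAK1, which activates cyclin-dependent kinases, were sorted elsewhere and had -1.40, -0.26 and 0.79. Levels of the 8 genes were low, at medians of 5.54 FPKM for the control and 10.2 FPKM for the irradiated library. CDC5 (TBIU016684), the polo kinase of budding yeast that drives mitotic exit, had a control level of 3.29 FPKM and an irradiated level of 9.98 FPKM. The log2 ratio was 1.36, and the interval ran from 0.99 to 2.11. A match of zyg-1 (TBIU009754), the kinase that starts centriole duplication in Caenorhabditis elegans, had 8.76 and 22.5 FPKM, or a log2 ratio of 1.27. With a pseudocount of 5 both came within 2-fold, at 0.85 for CDC5 and 0.997 for zyg-1. Plk4 (TBIU016207), which acts in centriole duplication in animals, had 4.42 and 5.53 FPKM, or a log2 ratio of 0.27, the lowest of the group among genes with 100 or more scaled reads.

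CHK1 (TBIU007188), a kinase that halts the cell cycle after DNA damage, had control and irradiated levels of 0.25 and 9.16 FPKM on 36.8 scaled reads. The log2 ratio was 3.02, and on so few reads the interval ran from 2.60 to 10.51. It passed the selection because its description does not hold the word checkpoint. Mph1 (TBIU017799), a spindle checkpoint kinase of fission yeast, had 31.2 and 38.7 FPKM, and its most-read isoform alone had a log2 ratio of -0.14. Plk5 (TBIU024239), described as an inactive polo-like kinase and the most abundant of the group, had 53.4 and 73.2 FPKM, or a log2 ratio of 0.45 that was 0.19 with all isoforms of its gene.

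Kinases of the ATM and ATR type, large proteins that signal damaged DNA, had levels from 4.63 to 18.1 FPKM in the control library. A match of atr (TBIU025787) had a control level of 5.11 FPKM and an irradiated level of 11.6 FPKM, or a log2 ratio of 1.04 with an interval of 0.92 to 1.35. TEL1, the ATM kinase of yeasts, was matched by 4 genes in 2 assembly clusters with log2 ratios from -0.40 to 0.53. The most abundant of them (TBIU026782) had 18.1 and 18.8 FPKM. So the atr match was just over 2-fold higher, and the TEL1 matches stood on both sides of 0. With the overall median removed the log2 ratio of atr was 0.98, just within 2-fold, and with a pseudocount of 5 it was 0.72.

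Gcn2 and the RIO and UbiB kinases had few matches, all within 2-fold. Gcn2 (TBIU026156), which slows translation when amino acids run short, had a control level of 17.6 FPKM and an irradiated level of 34.8 FPKM, or a log2 ratio of 0.94 with an interval of 0.71 to 1.10. Rio2 (TBIU012541) and rio1 (TBIU009270), which act in the last steps of small ribosomal subunit assembly, had log2 ratios of 0.85 and 0.69. The level of rio2 was 65.0 and 118 FPKM. COQ8 (TBIU016881), needed for coenzyme Q synthesis in mitochondria, had 16.5 and 30.9 FPKM, but its most-read isoform alone had a log2 ratio of -0.51.

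The largest role group held 44 genes matched to tyrosine-kinase-like and receptor-type kinases of slime moulds, plants, animals and a giant virus. Kinases of this class in plants and animals often sit at the cell surface. Of the 44 genes 8 were at least 2-fold lower and 2 at least 2-fold higher, and 28 had a log2 ratio below 0. Over all genes past the read minimum 11.7% were at least 2-fold lower, 11.3% at least 2-fold higher and 46.7% below 0. The median log2 ratio of the 44 was -0.18, and -0.33 on the authors' scaled values. Their summed level was 2173 FPKM for the control and 1362 FPKM for the irradiated library, and 1 gene made the largest share of that gap.

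That gene was the most abundant match of MIMI_R831 (TBIU003071), a putative kinase or receptor of a giant virus. It had a control level of 535 FPKM and an irradiated level of 179.7 FPKM, or a log2 ratio of -1.57 with an interval of -1.71 to -1.60. A pair of pyk3 matches (TBIU003072 and TBIU003073), dual specificity kinases of the slime mould Dictyostelium, lie in the same assembly cluster. They had 31.97 and 17.8 FPKM and 30.5 and 16.8 FPKM, with log2 ratios of -0.81 and -0.82. All 3 genes of this cluster were lower in the irradiated library, and whether they share reads was not tested.

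Other MIMI_R831 matches did not stand on 1 side. TBIU018180 had 33.1 and 7.13 FPKM, or a log2 ratio of -2.07. TBIU019963, at 66.6 and 79.3 FPKM, had 0.25, and TBIU013531, at 6.47 and 6.01 FPKM, had -0.09. The fifth (TBIU000710) had 38.7 scaled reads and a log2 ratio of 0.56.

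The lowest log2 ratio of all members belonged to a gene matched to SRK3 (TBIU010135), a tyrosine kinase of a sponge. It had a control level of 109.7 FPKM and an irradiated level of 18.9 FPKM, or a log2 ratio of -2.47 with an interval of -2.64 to -2.28. The value is a sum over 20 matching isoforms with 5 different descriptions, all of kinases. Of these isoforms 9 were listed at 0 in the irradiated library only and 1 in the control library only, and 10 were above 0 in both. The isoform with the most reads had 26.1 FPKM in the control library and was listed at 0 in the irradiated library. Another (TBIU010120) had control and irradiated levels of 1.63 and 5.07 FPKM. So isoforms of this gene stood on both sides, with those at 0 in the irradiated library making up most of the control level.

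Further receptor-type genes were lower. A match of shkD (TBIU035817), a dual specificity kinase of Dictyostelium, had a control level of 55.9 FPKM and an irradiated level of 18.4 FPKM, or a log2 ratio of -1.55, while a second shkD match (TBIU020535) had 16.5 and 13.7 FPKM. Of a pair of genes matched to DDB_G0267514, the abundant one (TBIU037972) had 443 and 311 FPKM, or a log2 ratio of -0.51. The other (TBIU037971) had 64.3 and 27.5 FPKM, or a log2 ratio of -1.20. Both genes of this assembly cluster were lower, and the interval of the second, -1.51 to -1.10, lay beyond 2-fold. A match of TNNI3K (TBIU048477), a heart muscle kinase of mammals with ankyrin repeats, had 57.4 and 13.6 FPKM on 77.9 scaled reads. It passed the read minimum through the control library, where it is high, and its estimated effective length was 125 bases.

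The group's other 2 genes below the 2-fold line had 156 and 53.7 scaled reads. At3g55450 (TBIU022154) had a log2 ratio of -1.18, or -0.82 with all isoforms. ROS1 (TBIU056379) had -1.17, or -0.17 with all isoforms, and passed the read minimum through the control library, where it is high.

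On the higher side, At1g06840 (TBIU001679), a leucine-rich repeat receptor-like kinase of Arabidopsis, had a control level of 8.74 FPKM and an irradiated level of 19.5 FPKM, or a log2 ratio of 1.08 that was 0.84 with a pseudocount of 5. The other (At2g24130, TBIU015109) had 60.1 scaled reads and a log2 ratio of 1.15. The remaining 34 genes were within 2-fold, among them the abundant gdt2 (TBIU022405) at 276 and 219 FPKM and JAK2 (TBIU024322) at 15.8 and 15.6 FPKM. The JAK2 match was level as a sum, while its isoforms had log2 ratios from -1.86 to 1.82.

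**Figure D4:**
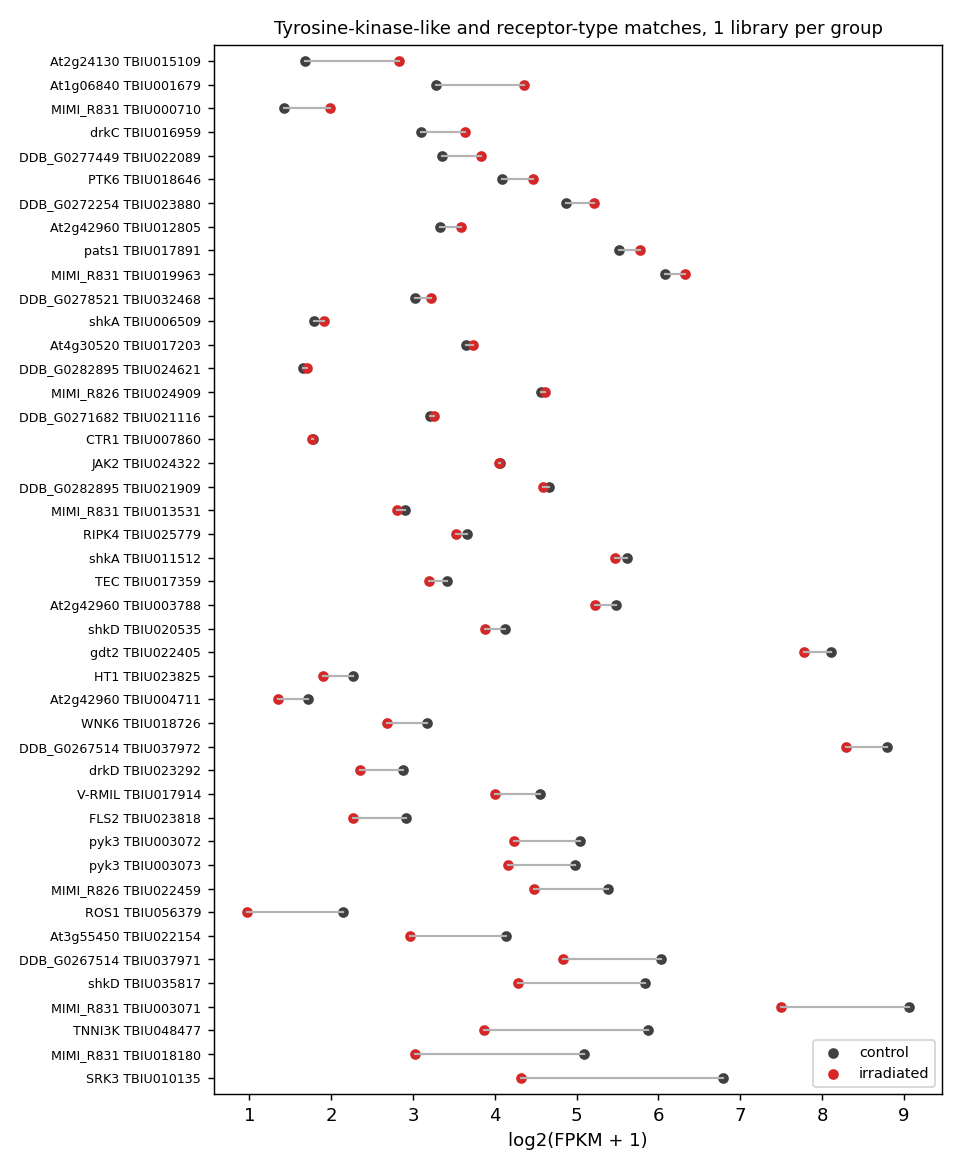
Level of the 44 tyrosine-kinase-like and receptor-type genes (y axis, symbol and gene number) as log2(FPKM + 1) (x axis) in the control library (grey) and the irradiated library (red), 1 library per group. The 28 genes in the lower part have the red point to the left of the grey one, with SRK3 at the bottom.

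Isoforms on opposite sides were not particular to SRK3. Of 78 members with 2 or more matching isoforms, 9 had isoforms beyond 2-fold in both directions, and for 8 of these the sum was within 2-fold. The same count was not taken over all genes, so whether it is usual in this assembly was not tested. A match of shkA (TBIU006509) had 2.46 and 2.76 FPKM as a sum over 7 isoforms. Its isoform with the most reads was listed at 0 for the control and at 2.17 FPKM for the irradiated library. How reads were divided among isoforms was not tested.

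Kinases outside these classes held 26 genes, 4 of them higher by 2-fold or more and 5 lower by as much. Over all genes past the read minimum 11.3% were that much higher and 11.7% lower. All 5 lower genes had 100 or more scaled reads, and 1 of the 4 higher genes did. The other higher genes were samkB (TBIU017516), PKZ1 (TBIU015302) and TSSK4 (TBIU003535). Each passed the read minimum through the irradiated library, where it is high, so their direction adds nothing. DDB_G0287001 (TBIU019688), a LIM domain kinase of Dictyostelium, had a control level of 43.1 FPKM and an irradiated level of 8.96 FPKM, or a log2 ratio of -2.15 with an interval of -2.63 to -2.12. All 3 matches of pkwA, a bacterial kinase with WD repeats, were lower. The most abundant (TBIU020268) had 338 and 149.6 FPKM, or a log2 ratio of -1.17. The others (TBIU005564 and TBIU004116) had -1.40 and -0.41. The former value was -2.65 for the most-read isoform alone and -1.74 with all isoforms of the gene. Their estimated effective lengths, from 155 to 245 bases, are those of short pieces, and whether they match the kinase domain or the WD repeats was not tested.

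CAK1, which activates cyclin-dependent kinases in budding yeast, had 3 matches with log2 ratios of -1.40, -0.26 and 0.79. The lowest of them (TBIU017885) had 18.3 and 6.31 FPKM and the highest (TBIU012038) had 28.8 and 50.6 FPKM, so these genes differed in opposite directions. TSSK1B (TBIU004394), matched to a testis-specific kinase of mammals, had a control level of 181 FPKM and an irradiated level of 82.1 FPKM, or a log2 ratio of -1.13. BarA (TBIU024012), a histidine kinase of bacteria, was abundant and level at 201 and 222 FPKM.

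A gene whose top match was PHY1 (TBIU015867), a light-sensor kinase of mosses, had a control level of 23.0 FPKM and an irradiated level of 58.2 FPKM, or a log2 ratio of 1.30 with an interval of 1.01 to 1.52. It had 7 matching isoforms with 4 descriptions, PHY1, IRE1, RTK1 and WEE1. The isoform with the most reads alone had a log2 ratio of 0.83. An isoform described as IRE1 (TBIU015869), the kinase and nuclease that senses unfolded protein in the endoplasmic reticulum, had control and irradiated levels of 0.07 and 11.9 FPKM. A second IRE1 isoform (TBIU015866) of the same gene had 6.72 and 5.41 FPKM. The descriptions are of unlike kinases, and none of these names is given to the gene.

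Type 1 phosphatases, which counter many kinases in mitosis and glycogen storage, had abundant catalytic genes near 0. The bimG matches, named for the type 1 phosphatase of Aspergillus nidulans, had 283 and 309.9 FPKM (TBIU015926) and 416 and 468 FPKM (TBIU015928). Their log2 ratios were 0.13 and 0.17. Pph-3 (TBIU015930), a type 1 phosphatase of Neurospora crassa, had a control level of 411 FPKM and an irradiated level of 502 FPKM, or a log2 ratio of 0.29. These 3 genes and a further pph-3 match share 1 assembly cluster. Among regulators, ppp1r7 (TBIU022568) had 148 and 129 FPKM and PPP1R12C (TBIU008500), a subunit that targets the enzyme to myosin, had 73.2 and 97.9 FPKM. Of the 8 genes of this group 7 were within 2-fold.

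The type 2A family and its relatives held 13 genes, with 3 at least 2-fold lower and 0 at least 2-fold higher. Over all genes past the read minimum 11.7% were that much lower and 11.3% higher. Of the 3 lower genes, 2 had 100 or more scaled reads. The scaffold subunit paa1 (TBIU008706) had 51.8 and 56.1 FPKM and the regulatory subunit pab1 (TBIU008847) had 271 and 355 FPKM. PPP2R5D (TBIU024224), a B56-type regulatory subunit, had 311 and 287 FPKM. These subunits had log2 ratios of 0.11, 0.39 and -0.12, all within 2-fold.

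Genes for enzymes that set the state of the type 2A catalytic subunit stood on both sides of 0. PPE1 (TBIU024006), the methylesterase that removes a methyl group from it, had a control level of 293 FPKM and an irradiated level of 137 FPKM, or a log2 ratio of -1.09 with an interval of -1.30 to -1.13. RRD2 (TBIU005090), an activator of the enzyme in yeast, had 57.1 and 91.4 FPKM, or a log2 ratio of 0.67. A fission yeast type 6 phosphatase match with a similar name (ppe1, TBIU005886) had 48.8 and 67.5 FPKM. The type 4 phosphatase match PPX1 (TBIU010300) had 41.3 and 50.9 FPKM as a sum of 4 isoforms, 1 of which was listed at 0 for the control and at 6.18 FPKM for the irradiated library.

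Ankrd28 (TBIU025634), described as an ankyrin-repeat subunit of the type 6 phosphatase, had 40.9 and 15.2 FPKM on 136 scaled reads. The estimated effective length of Ankrd28 was 277 bases. Whether its match rests on more than the ankyrin repeats was not tested. The third lower gene, PPP2R5C (TBIU050181), had 22.7 scaled reads and a log2 ratio of -1.08.

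Calcineurin, the type 2B phosphatase that calcium and calmodulin activate, had 4 genes. Of these 3 were lower in the irradiated library, a side held by 46.7% of all genes past the read minimum. All 4 passed the selection because their descriptions name neither calcium nor calmodulin. CNA1 (TBIU019497), the catalytic subunit, had a control level of 139 FPKM and an irradiated level of 73.2 FPKM, or a log2 ratio of -0.91 with an interval of -1.10 to -0.87. The next CNA1 matches (TBIU004986 and TBIU057947) had 141 and 78.4 FPKM and 62.6 and 43.4 FPKM, with log2 ratios of -0.84 and -0.52. The most abundant CNA1 match (TBIU013427) was higher, at 176 and 225 FPKM and a log2 ratio of 0.36. None of the 4 was 2-fold apart, and their summed level was 518 FPKM for the control and 420.1 FPKM for the irradiated library.

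Type 2C phosphatases, which in yeasts switch off stress-activated MAP kinases, had 2 of 8 genes at least 2-fold higher and 3 lower by as much. Over all genes past the read minimum 11.3% were that much higher and 11.7% lower. Among the 5 type 2C genes with 100 or more scaled reads, 1 was higher and 1 lower by 2-fold. Ptc1 (TBIU018361), which acts on the stress MAP kinase pathway in fission yeast, had a control level of 158 FPKM and an irradiated level of 62.0 FPKM. Its log2 ratio was -1.34 with an interval of -1.51 to -1.35, and 6795 scaled reads stood behind it. At5g66720 (TBIU013946), the most abundant of the group, had 287 and 163 FPKM, or a log2 ratio of -0.81. A short ptc2 match (TBIU062614), with an estimated effective length of 39 bases, had 201 and 83.8 FPKM on 96.3 scaled reads.

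The 3 genes matched to SPAC10F6.17c, a type 2C homolog of fission yeast, were all higher. TBIU018237 had 9.82 and 23.6 FPKM, or a log2 ratio of 1.18 that was 0.95 with a pseudocount of 5. TBIU056558 had 27.6 and 55.2 FPKM, or a log2 ratio of 0.97 that was 0.51 with all isoforms of its gene. TBIU013386 had 44.1 scaled reads and 0.40 and 2.68 FPKM. The last passed the read minimum through the irradiated library, where it is high.

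Tyrosine and dual-specificity phosphatases held 7 genes, 1 of them at least 2-fold higher, against 11.3% of all genes past the read minimum. Dusp12 (TBIU014961), a dual-specificity phosphatase of mammals, had a control level of 12.3 FPKM and an irradiated level of 36.5 FPKM, or a log2 ratio of 1.49 with an interval of 1.16 to 1.85. A weaker second Dusp12 match (TBIU056388) had 4.42 and 2.69 FPKM. Yvh1 (TBIU022010), the yeast relative of Dusp12 that also takes part in ribosome assembly, was the lowest at 58.7 and 34.03 FPKM, or a log2 ratio of -0.77. PTPRA (TBIU021510), the most abundant, had 355 and 227 FPKM, or a log2 ratio of -0.64. CdcA (TBIU055371), a Cdc14-type phosphatase of Dictyostelium, had 41.6 and 27.4 FPKM. Stp1 (TBIU003000), a low molecular weight phosphatase, and iphP (TBIU006780) had log2 ratios of 0.66 and 0.73.

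**Figure D5:**
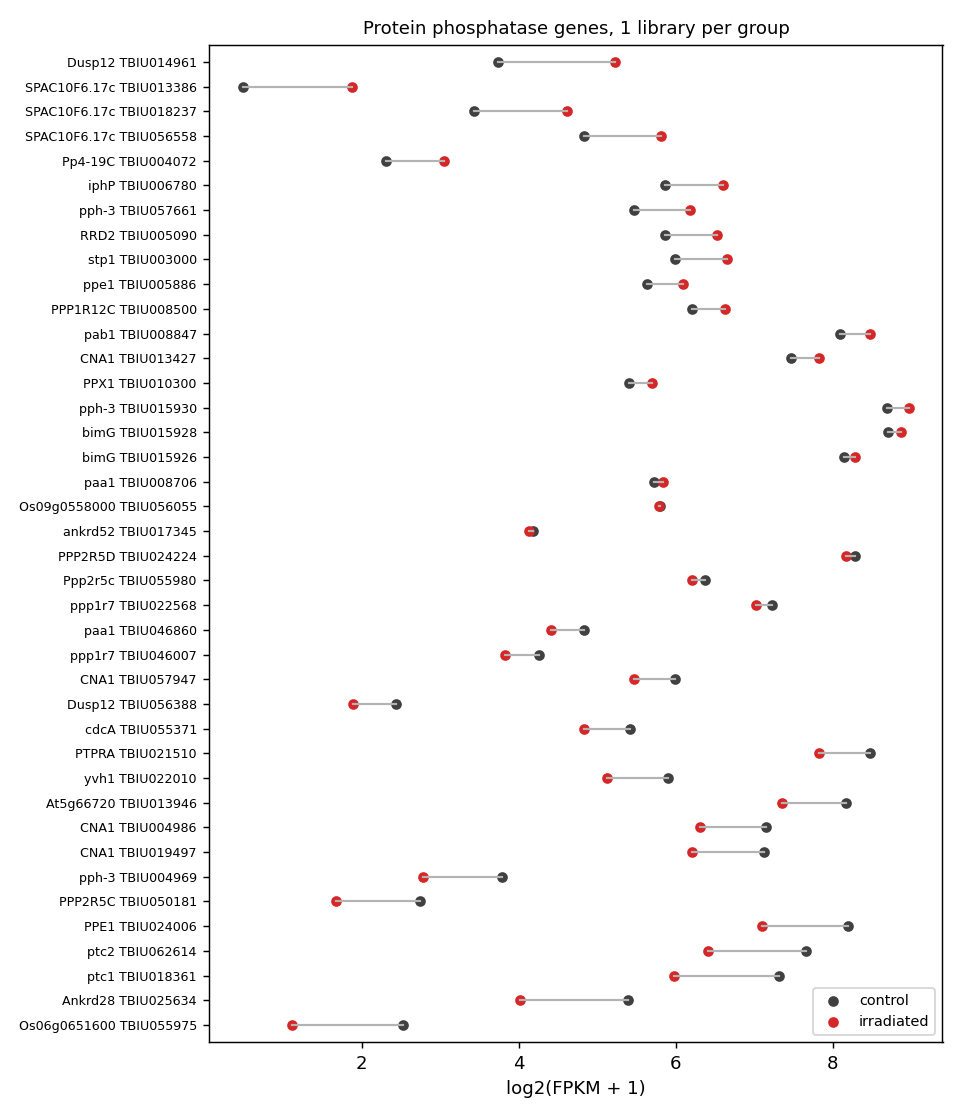
Level of the 40 phosphatase-group genes (y axis, symbol and gene number) as log2(FPKM + 1) (x axis) in the control library (grey) and the irradiated library (red), 1 library per group. Dusp12 is at the top with the red point to the right, and ptc1, PPE1 and 3 of the 4 CNA1 genes lie in the lower part with the red point to the left.

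Partner proteins of these pathways that the selection did not take were counted from lists of descriptions. Of 6 genes of histidine-kinase relays and osmosensing, which feed the osmotic stress MAP kinase, 0 were 2-fold apart. Both matches of mpr1, the phosphorelay protein above Sty1 in fission yeast, were lower. The abundant one (TBIU007046) had a control level of 324 FPKM and an irradiated level of 229 FPKM, or a log2 ratio of -0.50, and the other (TBIU060038) had -0.78. SHO1 (TBIU009383), an osmosensor of yeasts, had 306 and 307 FPKM.

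Of 10 genes of the TOR complexes, which couple growth to nutrients, 2 passed 2-fold upward and 0 downward, and the median log2 ratio was 0.41. Over all genes past the read minimum 11.3% passed 2-fold upward and 11.7% downward, and the median was 0.07. Of the 10, 6 were matches of the TOR kinase tor2, among them both genes beyond 2-fold. The highest (TBIU025687) had a control level of 12.6 FPKM and an irradiated level of 36.5 FPKM, or a log2 ratio of 1.46, and the match with the most reads (TBIU021402) had 34.05 and 50.3 FPKM, or a log2 ratio of 0.55. The lowest of the list was ste16 (TBIU022966), a TOR complex 2 subunit of fission yeast, at 104 and 76.7 FPKM. The rhb1 match (TBIU019051) was also below 0, at a log2 ratio of -0.27.

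Proteins of the 14-3-3 family, which bind phosphorylated partners, were counted in 5 genes, 1 of them at least 2-fold lower, against 11.7% of all genes. The most abundant (TBIU020067) had 1694 and 2331 FPKM, or a log2 ratio of 0.46. The lower one (ywhaba, TBIU003691) had 11.8 and 0.90 FPKM on 85.4 scaled reads. It passed the read minimum through the control library, where it is high. Among 6 genes of cAMP and Ras signalling, regA (TBIU051738), a phosphodiesterase that breaks down cAMP, had 29.9 and 14.3 FPKM, and a cgs2 match (TBIU052588) of the same function had 14.3 and 33.6 FPKM. Of 8 lipid and inositol kinase genes, 1 was at least 2-fold higher, against 11.3% of all genes. That gene was a pik1 match (TBIU051448) at 3.53 and 8.53 FPKM on 32.1 scaled reads, with an interval of -0.0004 to 2.38 that spans 0. It passed the read minimum through the irradiated library, where it is high. The lowest was SPCC970.08 (TBIU012149) at a log2 ratio of -0.23.

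Many members may be pieces or near copies of each other. The 196 genes carried 144 distinct symbols, 85 genes shared their symbol with another member, and 27 shared an assembly cluster with another member. An estimated effective length, from scaled reads per FPKM, was under 300 bases for 25 genes. Besides, 44 genes had isoforms whose descriptions did not pass the selection, which were not summed, and 22 had matching isoforms with more than 1 description. Levels of these genes depend on how the assembly divided them.

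Members near the read minimum show how little stands behind the weakest values. The last gene inside, a probable type 2C phosphatase (Os06g0651600, TBIU055975), had 4.78 and 1.17 FPKM on 20.4 scaled reads. Just outside lay a wis4 match (TBIU059573) with 9.01 and 6.08 FPKM on 17.1 scaled reads. The authors' deposited table gives a q-value of 1 for every transcript. From a test that it does not name, it gives a p-value of 0.05 or less to 27 of the 413 member transcripts, or 6.54%, against 5.1% of the 26318 transcripts of all genes with 20 or more scaled reads and 2.33% of all transcripts. Its lowest p-values among members, from 0.00154, belong to isoforms of the SRK3 gene that are listed at 0 in the irradiated library.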

How the data were processed

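RNA of fruit bodies was sequenced by the authors as 1 library per group, and 1000 ng of total RNA went into each library per the labels. FPKM values to 2 decimals were deposited by the authors, per the file headers, for 57717 assembled transcripts. The table also holds 2 scaled values per transcript, the log2 fold change of the authors, which is their log2 ratio, and p-values and q-values deposited by the authors. The scaled values carry no sample name or unit and were read as the sides of the authors' comparison of control with 200 Gy. All 14853 and 12769 transcripts at 0 in them are also listed at 0 FPKM in the control and irradiated libraries. Their lowest steps are 1.03 and 0.968, and for 96.0% and 96.7% of genes between 0.5 and 9.9 they are whole multiples of these to within 0.05, which is how reads divided by a library factor would look. The sources used here name no assembler, aligner or quantification tool. Python 3.11.15, pandas 2.3.3, numpy 2.4.6, scipy 1.17.1 and matplotlib 3.10.9 were used.

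Members and lists were chosen with earlier results of these data known. Role groups and partner lists are text patterns on descriptions. After the values had been seen, 15 members were moved to another role group by their known function, and patterns of the partner lists that had caught unrelated words were narrowed. The values of 1 partner list are not reported here. Genes were named by a rule among those with 100 or more scaled reads: the 8 highest and 8 lowest log2 ratios, the 5 highest mean levels, and the highest, lowest and most abundant of each role group, 57 in all. Other named genes were chosen after their values were seen. The 2-fold counts and the intervals were tested on simulated data. With 1 library per group no model of the spread was fitted.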

Additional observations from a re-analysis of the deposited data

How the results depend on the processing

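With 1 library per group no replicate could be left out, and counting intervals leave out differences between fruit bodies. No paired analysis was possible because each group has 1 library and no test was made. The 19 higher and 25 lower members became 17 and 25 with the overall median of 0.07 removed, 21 and 26 with a pseudocount of 0.1, 21 and 27 with the authors' scaled values, 18 and 24 with all isoforms of each gene, 23 and 26 with the matching isoform with the most reads, and 18 and 24 with 1 gene per assembly cluster. With a pseudocount of 5, which shrinks genes with low values, 7 were higher and 18 lower. Without a minimum of scaled reads, over 435 genes, 124 were higher and 101 lower. With a minimum of 100, over 152 genes, 11 were higher and 16 lower. Among members of 300 or more bases of estimated effective length, an alternative chosen after seeing the data, 19 were higher and 17 lower of 171.

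The median log2 ratio of the members stayed between -0.02 and 0.09 under these 10 alternatives, and its sign was negative with the overall median removed and with the scaled values. Of 342 values of the 57 named genes under 6 alternatives, 297 moved by less than the half-width of the counting interval and 45 by more, and 0 genes at least 2-fold apart changed sign. Of the 23 named genes at least 2-fold apart, 16 were so under all 6. A pseudocount of 5 brought SPAC10F6.17c, zyg-1, CDC5, Stk32a, atr and At1g06840 within 2-fold, removal of the overall median Stk32a and atr, and the isoform with the most reads PHY1.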

Other observations

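Kinases that the selection left out by their descriptions include those of calcium signalling, the pathway that also activates calcineurin. Of 4 calcium/calmodulin-dependent kinase genes, 3 had log2 ratios below 0 and 1 was at least 2-fold lower. Over all genes past the read minimum 46.7% were below 0 and 11.7% at least 2-fold lower. The most abundant cmk1 match (TBIU015524), a calmodulin-activated kinase of fission yeast, had a control level of 249.8 FPKM and an irradiated level of 151 FPKM, or a log2 ratio of -0.73 and a counting interval of -0.88 to -0.74. A second cmk1 match (TBIU015528) had 19.9 and 8.65 FPKM, or a log2 ratio of -1.11. The cmkA match (TBIU016491), 1 of the 3 below 0, was level at 69.0 and 67.1 FPKM, or a log2 ratio of -0.04. The CMK1 match (TBIU057739) had 6.42 and 9.89 FPKM, or a log2 ratio of 0.55.

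Among 4 cyclin-dependent and cell division kinase genes left out in the same way, 1 was at least 2-fold lower, against 11.7% of all genes. Cdk11b (TBIU012205), a cyclin-dependent kinase that acts on RNA synthesis and splicing, had 39.5 and 56.2 FPKM, or a log2 ratio of 0.50. The regulatory subunit suc1 (TBIU001442), which binds cyclin-dependent kinases, had 187 and 265 FPKM, also a log2 ratio of 0.50. The lower gene was the Cdkl4 match (TBIU024825), with a log2 ratio of -2.48 for its 1 transcript of that description. The gene ECU08_0230 (TBIU007772) had a log2 ratio of -0.18 on 41.1 scaled reads.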
